A study of Homo sapiens with 18 samples.

Results

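Untreated A549 cells were compared at 22 h and at 3 h of recovery. The 6 arrays are the untreated controls of the AS30 set, 3 at each time, chosen by their labels from the 18 arrays of the series, and no measured value entered the choice. A549 is an established cell line from a human lung adenocarcinoma, used as a model of the alveolar type II cell. The series examined silica nanoparticles (NPs) of the Ludox type, SM30 and AS30, on 1-colour Agilent arrays, with 3 biological replicates in each of 6 groups. The untreated cells went through the handling of the treated ones without the NPs, that is 2 h without serum and then 3 h or 22 h with serum restored. The AS30-treated cells used below for comparison had 0.02 mg/mL NPs during the 2 h step and the same recovery times. The comparison asks what changes in this line between an early and a late control, against which the NP effects at each time are read. Time since serum came back and total time in culture differ together between the groups and cannot be told apart.

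Serum holds growth factors that act through receptors at the cell surface and, within minutes, switch on immediate-early genes such as EGR1 and FOS, most of them transcription factors with short-lived transcripts. Serum and medium change also act on the NF-kB pathway, in which dimers of RELA, RELB, NFKB1 and NFKB2 are held by inhibitors of the NFKBIA family, and once free bind kB sites and raise cytokines, adhesion molecules, survival proteins and their own inhibitors. PER1 is a period gene of the circadian clock, which is known to respond to serum in cultured cells.

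Of 28179 probes tested with limma, 366 (1.3%) passed an adjusted p of 0.05, which is called below. A total of 142 (0.504%) were higher and 224 (0.795%) lower at 22 h. With 1 probe for each gene, 203 of 13826 genes (1.47%) were called, 72 of them higher (0.521%) and 131 lower (0.947%). The median size of a called change was 1 on the log2 scale, whereas the median difference over all genes was 0.01. Of the called probes 273 were measured on all 6 arrays, and in 272 of them the values of the groups did not overlap, against 14% of all probes so measured. The probes were called on these same values, so this is a description of the calls and no separate support. In 64 called probes, 42 lower and 22 higher, the signal of 1 group but not of the other nowhere rose well above background, so that at most a limit of the change is known. Called probes well above background on no array of either group, such as that of MX2, are not in this count.

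**Figure D1:**
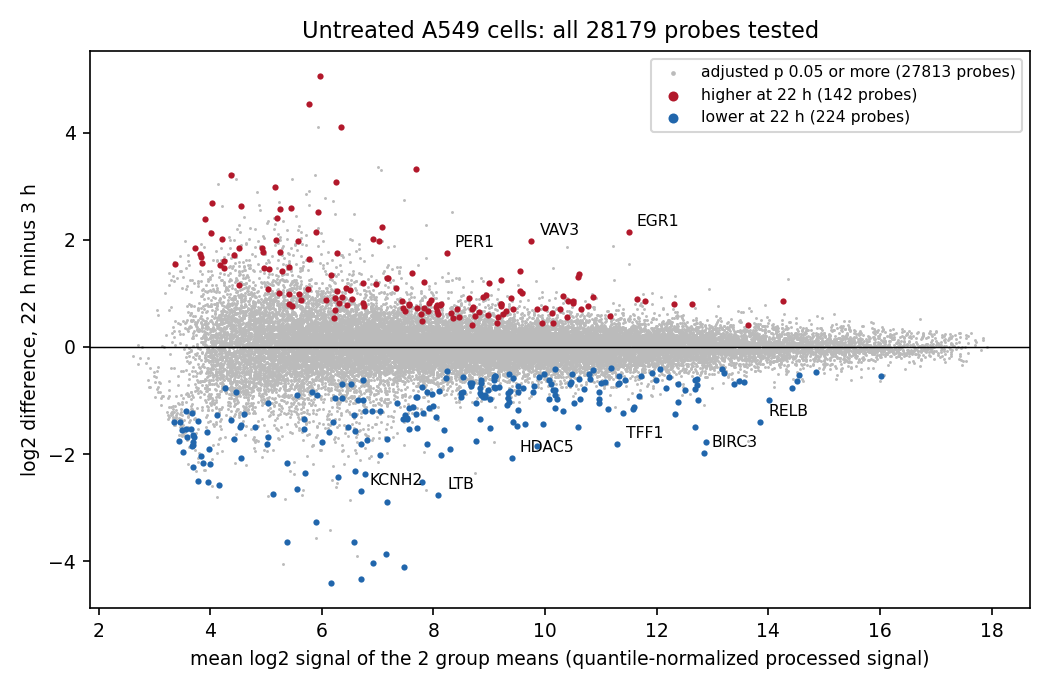
Difference between 22 h and 3 h (log2, vertical axis) against the mean log2 signal of the group means (horizontal axis) for the 28179 probes tested in untreated A549 cells. Red points are the 142 probes called higher at 22 h, blue points the 224 called lower and grey points the rest, and the widest grey scatter is at low signal.

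The arrays were not equally alike. The share of spots scored positive was 73.9%, 74.2% and 66% in the 3 h replicates A, B and C, and 66.2%, 66.7% and 72% in the 22 h replicates. Replicate C at 3 h stood apart, at a root mean square distance of 0.725 and 0.687 (log2) from replicates A and B, which were 0.367 apart, whereas pairs of a 3 h and a 22 h array lay 0.474 to 0.678 apart. Without it 1557 probes were called. The 3 replicates at 3 h and replicate A at 22 h were on 1 slide, while replicates B and C at 22 h were on 2 other slides, so slide and time overlap in part. A comparison within the shared slide called 223 of 26039 probes (0.856%), 63 of them among the 366. It uses 4 of the same 6 arrays, so a direction shared with it is fixed by the choice of the called probes. Replicate A is its only array at 22 h, and its spread comes from the groups with replicates among the 18 arrays. Its adjusted p values are therefore not those of a replicated comparison. The epithelial keratins KRT8 and KRT18 were bright, at mean log2 signals of 16.4 and 17.3 at 3 h, and differed by -0.01 and 0.02 between the times, while the reference genes GAPDH and ACTB differed by -0.05 and 0.10. Over the 9 epithelial markers tested the differences ran from -0.36 to 0.41, with 3 above 0 and 6 below, and none was called. SFTPB, a surfactant protein of the alveolar type II cell, was well above background on none of the 6 arrays. Of 18 markers of leukocytes, endothelium, fibroblasts, red cells and hepatocytes 9 could be tested and none was called by limma, with 0 called higher and 0 lower.

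The clearest group was that of NF-kB targets, cytokines and chemokines, which was lower at 22 h. Of its 30 members 23 were tested: 8 fell (background 0.947%), 0 rose and 15 were not called. The median difference was -0.90, against 0.01 for all genes, and 21 of the 23 differences were below 0, while 51.4% of all genes differed above 0. Of all genes 7.74% had a lower value at an unadjusted p under 0.05, and of these 23 members 12 did. In 11 of the members the groups did not overlap with 22 h the lower, against 7.09% of all genes. The lists were chosen with earlier results of these data known, so these shares describe the list and do not test it. The brightest probes of CXCL6, CCL5, CCL20, IL1A, TNF, VCAM1 and CSF3 were not tested. A dimmer TNF probe was called lower (limma, adjusted p = 0.0416), but it was well above background on 1 array at 3 h and on none at 22 h, and no fold can be given.

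The subunits and inhibitors of the pathway come first. RELB, a subunit of the non-canonical dimer, had log2 signals of 14.86, 14.67 and 14.15 at 3 h (replicates A, B and C) and 12.98, 13.25 and 13.21 at 22 h, measured by a probe at chr19:50233225-50233284 (build hg18). The groups lay well apart, with replicate C the lowest at 3 h. RELB fell by 1.41 ± 0.15 (log2, SE), a 2.66-fold lower signal (limma, adjusted p = 0.000541), and differed by -1.58 within the shared slide. NFKB1, the precursor of the p50 subunit, had 12.50, 12.36 and 11.60 at 3 h and 11.18, 10.98 and 10.90 at 22 h, and fell by 1.13 ± 0.18 (2.19-fold, adjusted p = 0.00818, limma). Again all 3 h values were above all 22 h values, and replicate C was nearest to them. NFKB2, the precursor of the p52 partner of RELB, fell by 0.90 ± 0.16 (adjusted p = 0.0132), but differed by 0.35 when the 3 untreated 3 h arrays of the SM30 set, hybridised on other slides, were the reference. NFKBIE, an inhibitor that keeps the dimers in the cytoplasm, fell by 1.15 ± 0.20 (adjusted p = 0.0137). NFKBIA, the inhibitor most rapidly remade after activation, differed by -0.41 and was not called (adjusted p = 0.211).

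Among the survival and signalling targets, BIRC3, a ubiquitin ligase that restrains cell death below tumour necrosis factor receptors, had log2 signals of 14.24, 14.11 and 13.14 at 3 h and 11.93, 12.01 and 11.59 at 22 h (chr11:101713566-101713625, hg18). No 22 h value reached the lowest 3 h value. It fell by 1.99 ± 0.23, or 3.96-fold (limma, adjusted p = 0.000944), and differed by -1.90 within the shared slide. TRAF1, an adaptor of the same receptors, had 9.77, 9.91 and 9.61 at 3 h and 8.10, 8.38 and 8.30 at 22 h. Here the replicates of each group were close together, and the fall was 1.51 ± 0.15 (2.84-fold, adjusted p = 0.000265), and a second TRAF1 probe, well above background on no 22 h array, was at least 2.78-fold lower (adjusted p = 0.00438). TNFAIP3, which ends NF-kB signalling by editing ubiquitin chains, was well above background on no 22 h array and was not called (adjusted p = 0.0995).

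Of the adhesion molecules and chemokines, ICAM1, the endothelial and epithelial ligand of leukocyte integrins, had 7.92, 7.34 and 6.34 at 3 h and 3.70 and 3.42 in replicates B and C at 22 h, while replicate A had no positive signal there. It was well above background on all 3 h arrays and on no 22 h array, hence at least 2.16-fold lower at 22 h (limma, adjusted p = 0.00233). CCL2, the monocyte chemoattractant, had 14.37, 14.06 and 12.88 at 3 h and 11.91, 12.49 and 11.57 at 22 h, and fell by 1.78 ± 0.40 (3.44-fold, adjusted p = 0.0463). The groups did not overlap but replicate C at 3 h lay close to replicate B at 22 h, and the call was lost without either 3 h A (adjusted p = 0.139), 3 h B (0.141), 22 h A (0.0762), 22 h B (0.0569) or 22 h C (0.136). CXCL8, the neutrophil chemoattractant interleukin 8, had 10.42, 10.34 and 9.00 at 3 h and 7.69, 8.12 and 6.86 at 22 h, a difference of -2.36 ± 0.57 that was not called (adjusted p = 0.0584), and it was called without replicate C at 3 h (-2.82, adjusted p = 0.0198). The related chemokines CXCL2 and CXCL3 differed by 0.53 and 0.27, neither of them called (adjusted p = 0.545 and 0.752), and were the members with differences above 0.

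**Figure D2:**
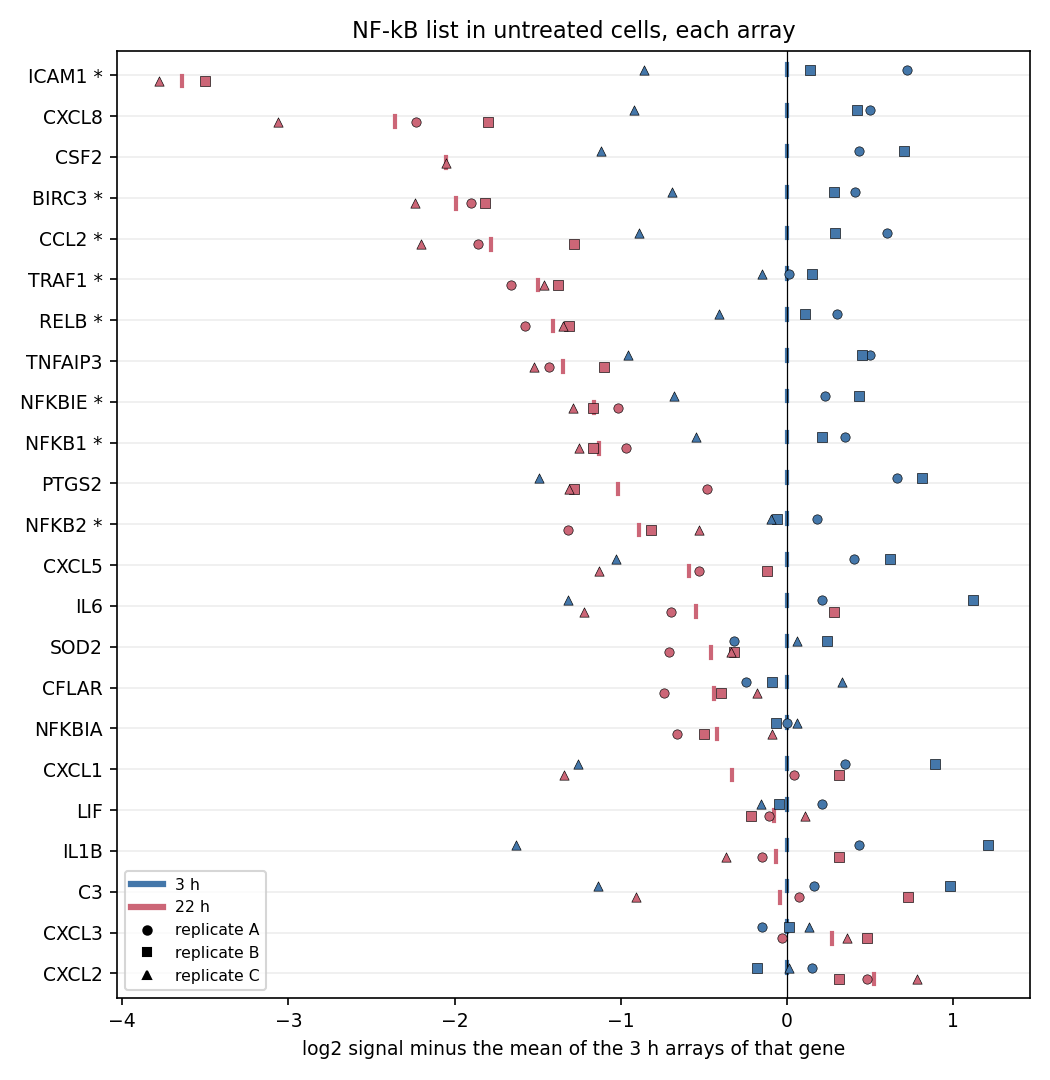
Log2 signal of the 23 tested members of the NF-kB list in each untreated array, minus the mean of the 3 h arrays of that gene (horizontal axis), with 1 row for each gene. Blue is 3 h and red is 22 h, circles, squares and triangles are replicates A, B and C, ticks are group means and a star marks the 8 members called, and the triangle at 3 h lies to the left of the other 3 h points for most of the upper rows.

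Over 21 members, centred on each member's mean, the median log2 signal was 0.63, 0.92 and 0 in the 3 h replicates A, B and C and -0.44, -0.29 and -0.70 in the 22 h replicates, so that 3 h C lay nearest to the 22 h arrays. As a group the list depended on the spread borrowed from the other arrays and on replicate C at 3 h. Without that array 11 members were called lower. Lower calls over all probes also rose then, from 224 of 28179 to 894 of 28111. In a fit of the 12 arrays of the AS30 set 4 members were called lower, with 19 of 28179 probes. A fit of the 6 arrays alone called 0 members and no probe. Within the shared slide, with 1 array at 22 h, the median of 21 members was -0.71. The median was -0.47 with the normexp background correction and -0.59 for the members positive on all 6 arrays.

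The promoters of the called NF-kB genes were searched for kB sites, as these genes moved together. RefSeq promoter windows (GRCh38.p14, from 250 bases before to 50 after a start) were matched for BIRC3, ICAM1, NFKB1, NFKB2 and TRAF1, and the other called members were CCL2, NFKBIE and RELB. A kB site on either strand was found in 4 of their 10 windows, those of BIRC3, NFKB1 and NFKB2, and in 11.3% of all 35116 windows, and this motif was added to the search after the fall of the list had been seen. It was likewise in 12 of the 29 windows of all tested members, those of 11 of 18 genes, including CXCL2 and CXCL3, whose differences were above 0. The part of the windows with the sites is shown for the survival gene BIRC3 and the subunit gene NFKB1, with kB sites in capitals, on the plus strand at chr11:102317265-102317364 and chr4:102501290-102501358.
BIRC3: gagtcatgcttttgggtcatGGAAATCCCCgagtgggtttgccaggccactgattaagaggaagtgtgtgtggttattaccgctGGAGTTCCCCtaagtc
NFKB1: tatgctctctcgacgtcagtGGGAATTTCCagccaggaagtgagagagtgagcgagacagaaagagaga
The BIRC3 window held 2 sites, which begin 199 and 135 bases before the start, and that of NFKB1 held its site 49 bases before the start. These are matches of letters, and no binding was measured.

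Further genes with the largest falls lay outside that list. LTB, lymphotoxin beta, a membrane ligand of the tumour necrosis factor family, had the largest fold among probes measured on all 6 arrays, with log2 signals of 9.87, 9.62 and 8.93 at 3 h and 6.72, 7.06 and 6.35 at 22 h (chr6:31656448-31656507, hg18). A wide gap separated the groups. LTB fell by 2.77 ± 0.25, or 6.81-fold (limma, adjusted p = 0.000248), differed by -2.76 within the shared slide, and was called in 22 of 24 other settings. HDAC5, a class IIa histone deacetylase, had 10.52, 10.43 and 10.37 at 3 h and 7.69, 8.50 and 8.88 at 22 h. The 3 h values were tight and the 22 h values spread below them, with a fall of 2.08 ± 0.29 (4.24-fold, adjusted p = 0.00438) and differences of -2.52 and -1.1 on the 2 further HDAC5 probes, both called. MSC, the transcriptional repressor musculin, had 9.42, 9.31 and 8.70 at 3 h and 6.89, 7.18 and 7.31 at 22 h and fell by 2.02 ± 0.20 (4.06-fold, adjusted p = 0.000308).

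KCNH2, a potassium channel, differed by -2.69 (adjusted p = 0.00672) but was well above background on no 22 h array, and was at least 3.87-fold lower. Its second probe was well above background on none of the 6 arrays. With the SM30 set controls as the 3 h reference KCNH2 differed by 0.37. GREM1, an antagonist of bone morphogenetic proteins, fell by 2.02 ± 0.31 (4.04-fold, adjusted p = 0.00707). At 22 h GREM1 was well above background on only 1 array, so its fold is uncertain. BMP6, a ligand of that family, fell by 1.76 ± 0.31 (3.39-fold, adjusted p = 0.0123) and was not called without 22 h B (0.0531). TFF1, a secreted trefoil peptide of mucous epithelia, had 12.33, 12.16 and 12.12 at 3 h and 11.01, 9.96 and 10.19 at 22 h, and fell by 1.82 ± 0.29 (3.52-fold, adjusted p = 0.00777). Its 22 h values were all more than 1 log2 unit below the 3 h values. IL1RAP, the co-receptor of the interleukin 1 receptor, fell by 1.57 ± 0.32 (2.97-fold, adjusted p = 0.0293). It too was well above background on only 1 array at 22 h. Its second probe was not called (adjusted p = 0.188), and the call was lost without 3 h A (0.0555), 22 h A (0.061) or 22 h B (0.106).

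Of 29 immediate-early genes 1 rose (EGR1, background 0.521%), 1 fell (NR4A3, background 0.947%) and 27 were not called. The list median was -0.15, which turned to 0.05 without 22 h B. EGR1, a zinc-finger factor induced through serum response factor, was higher at the late time: 10.61, 10.21 and 10.45 at 3 h and 12.60, 12.08 and 13.04 at 22 h (chr5:137832790-137832849, hg18). The lowest 22 h value stood more than 1 log2 unit over the highest 3 h value. EGR1 rose by 2.15 ± 0.40, or 4.44-fold (limma, adjusted p = 0.0199), and by 2.18 within the shared slide, where it was not called (adjusted p = 0.143). The call was lost without 3 h B (adjusted p = 0.0697) or 22 h C (0.0658) and in the authors' deposited table (0.108). With the SM30 set controls as the 3 h reference EGR1 differed by -0.01. FOS, another immediate-early gene, showed 9.93, 10.63 and 10.27 at 3 h and 11.96, 11.70 and 12.85 at 22 h. Its groups did not overlap either, but the difference of 1.89 ± 0.64 was not called (adjusted p = 0.173).

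NR4A3, an orphan nuclear receptor of the same response, had 10.48, 11.26 and 10.58 at 3 h and 8.58, 8.79 and 9.40 at 22 h, and fell by 1.85 ± 0.25 (3.60-fold, limma, adjusted p = 0.00339). Thus within 1 list EGR1 and NR4A3 went opposite ways. NAB1 and NAB2, corepressors that bind EGR1, fell by 1.20 ± 0.22 (adjusted p = 0.017) and 0.66 ± 0.15 (adjusted p = 0.0472), and both were picked after their values had been seen.

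Of 20 genes of the EGF ligands and MAP kinase feedback list 2 fell (background 0.947%) and 0 rose, with a median of -0.35, which was -0.12 with the normexp correction. HBEGF, a ligand of the EGF receptor, had 9.48, 9.04 and 9.20 at 3 h and 7.32, 6.95 and 7.74 at 22 h, and fell by 1.90 ± 0.25 (3.74-fold, limma, adjusted p = 0.00286), with -1.82 on its second probe (adjusted p = 0.00569). All values at 22 h were far below those at 3 h. PLAUR, the urokinase receptor, fell by 1.04 ± 0.24 (2.06-fold, adjusted p = 0.0469), a call lost without 3 h A (0.0952), 3 h B (0.103), 22 h A (0.0794) or 22 h B (0.162). The ligands EREG and AREG differed by -0.70 and -0.60 and were not called (adjusted p = 0.067 and 0.176).

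The EGR1 promoter is shown because EGR1 was the most strongly raised gene measured on all arrays. Its window held 2 CArG boxes, the site of serum response factor, the nearer of which begins 83 bases before the start, and 1.29% of all windows hold such a box. The stretch is chr5:138465354-138465453 on the plus strand (GRCh38.p14), with the boxes in capitals.
EGR1: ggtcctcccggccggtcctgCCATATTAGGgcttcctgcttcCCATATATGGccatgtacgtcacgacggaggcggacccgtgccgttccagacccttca
EGR1 was the single called list member whose window held the box.

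The circadian clock list had a median of 0.49, with 13 of 16 differences above 0 (background 51.4%), 1 call higher (background 0.521%) and 0 lower. Of its 12 members measured on all 6 arrays 1 had groups that did not overlap with 22 h the higher, against 8.53% of all genes. The median was 0.24 within the shared slide or with the SM30 set controls as reference, 0.14 with the normexp correction and 0.26 without 3 h A, and other lists had higher medians in the shared slide and with normexp. PER1, which represses its own CLOCK and BMAL1 activators, had 7.00, 7.37 and 7.72 at 3 h and 8.90, 9.02 and 9.42 at 22 h (chr17:7984992-7985051, hg18). The groups were separated by more than the range of either. PER1 rose by 1.75 ± 0.25, or 3.36-fold (limma, adjusted p = 0.00467), and by 1.54 within the shared slide, where it was not called (adjusted p = 0.0682). PER2 differed by 0.60, NR1D1, a clock repressor, by 0.44, BMAL1 by -0.11 and CRY1 by 0.04, and none of the 4 was called. A second CRY1 probe, well above background on all 6 arrays, had 7.80, 7.78 and 8.53 at 3 h and 6.93, 6.83 and 7.54 at 22 h, a difference of -0.93 that was not called (adjusted p = 0.0597). For DBP, a factor driven by the clock, the brighter probe differed by 0.54 (adjusted p = 0.606), and the other one, well above background on no 3 h array and 1 at 22 h, was at least 2.17-fold higher (adjusted p = 0.0245).

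CLOCK and BMAL1 bind the E-box CACGTG, so the PER1 promoter is shown with that box in capitals. The stretch is chr17:8152498-8152597 on the minus strand (GRCh38.p14), and the box begins 173 bases before the start.
PER1: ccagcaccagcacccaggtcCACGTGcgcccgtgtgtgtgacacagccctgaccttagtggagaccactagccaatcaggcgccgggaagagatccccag
The letters CACGTG were in 7.26% of all windows and, among the called list members searched, in that of PER1. The AP-1 site TGACTCA (4.95% of windows) was found for PLAUR, and the cAMP response element TGACGTCA (1.85%) for GABARAPL1.

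Besides EGR1 and PER1, the genes with the largest rises were of mixed roles. VAV3, a signalling protein, had 8.98, 8.82 and 8.48 at 3 h and 11.04, 10.26 and 10.92 at 22 h, and rose by 1.98 ± 0.29 (3.95-fold, limma, adjusted p = 0.00569). Within the shared slide it differed by 2.28. ATOH8, a basic helix-loop-helix factor, had 5.37, 5.54 and 6.80 at 3 h and 6.93, 8.29 and 8.55 at 22 h, so that 3 h C and 22 h A nearly met. Its rise of 2.02 ± 0.42 (4.05-fold, adjusted p = 0.0316) was not called without 3 h A (0.102), 3 h B (0.11), 22 h B (0.111) or 22 h C (0.102). RGS14, a regulator of G protein signalling, had 6.12, 6.37 and 6.67 at 3 h and 7.70, 7.48 and 7.54 at 22 h. Its values were tight in both groups, and it rose by 1.18 ± 0.15 (2.27-fold, adjusted p = 0.00199).

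UCN3, a peptide hormone of the corticotropin-releasing family, was well above background at 22 h on 1 array and at 3 h on none, and was at least 1.59-fold higher (adjusted p = 0.0462), a call lost without 3 h A (0.0946), 3 h B (0.122), 22 h B (0.162) or 22 h C (0.132). TGFBR3, the co-receptor betaglycan, rose by 1.34 ± 0.25 (2.53-fold, adjusted p = 0.0165) and lost the call without 22 h C (0.0551). PKDCC, a secreted kinase, rose 2.67-fold, CCDC28B 2.31-fold, B4GALNT4 2.28-fold, HSPA12B 2.14-fold and SPIN3 2.09-fold. Of these CCDC28B was called in every fit that left out 1 array, PKDCC was not without 3 h A (0.0704), 3 h B (0.124) or 22 h B (0.13), B4GALNT4 not without 3 h B (0.0723), 22 h B (0.0905) or 22 h C (0.0777), and HSPA12B and SPIN3 not without 22 h C (0.0573 and 0.0529), nor HSPA12B without 22 h B (0.059) or SPIN3 without 3 h B (0.0543). SPIN3 differed by -0.11 with the SM30 set controls as reference. Chosen on arrays that the shared-slide comparison also uses, the 12 largest rises and 12 largest falls gain no separate support from it.

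**Figure D3:**
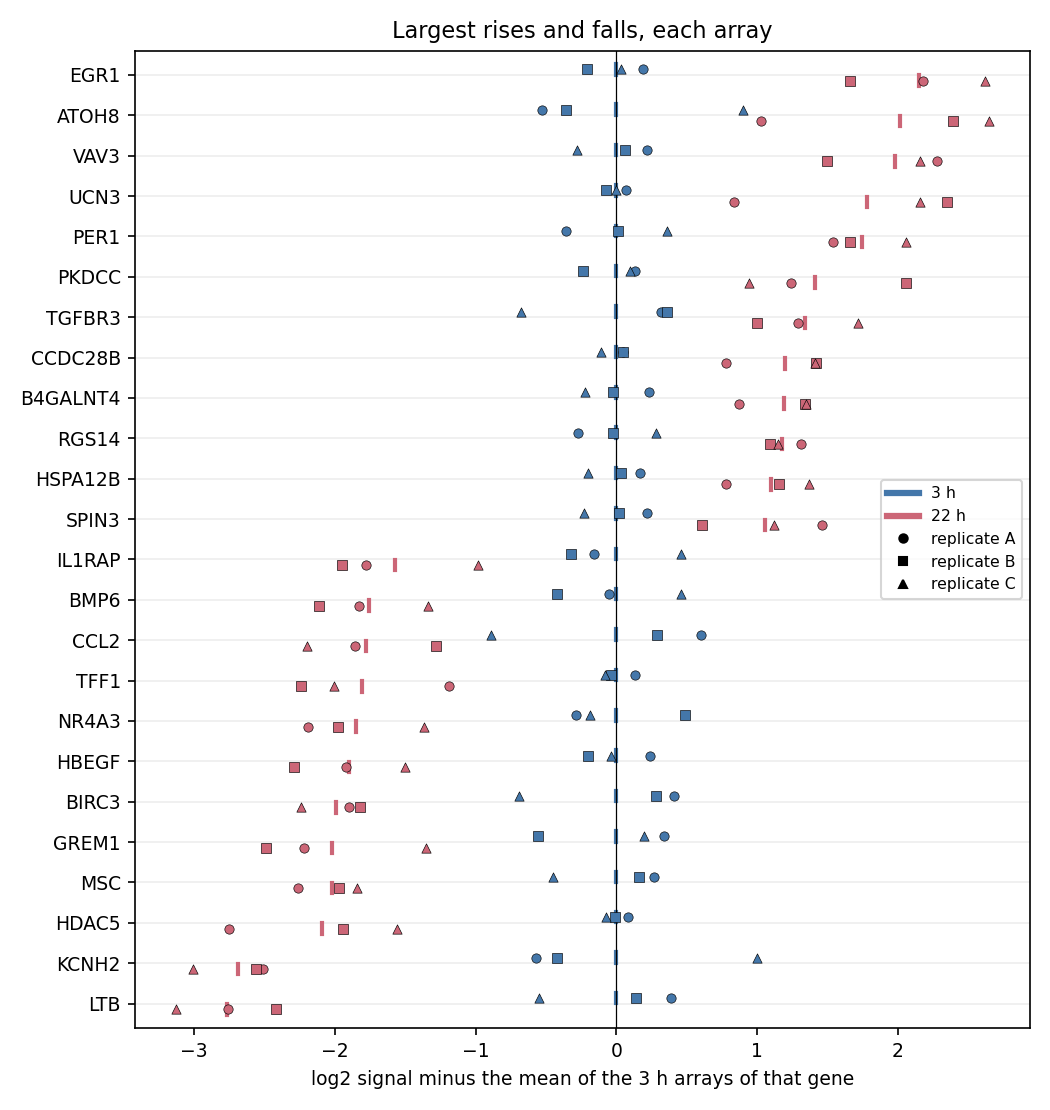
Log2 signal in each array minus the mean of the 3 h arrays of that gene (horizontal axis) for the genes with the 12 largest rises and the 12 largest falls at 22 h, 1 row for each gene. Blue is 3 h and red is 22 h, circles, squares and triangles are replicates A, B and C, and ticks are group means. The folds of the plotted means ran from 2.09 to 4.44 for the rises and from 2.97 to 6.81 for the falls, and the rule for naming them required groups that do not overlap.

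Few genes of the stress lists were called. Of all genes 51.4% differed above 0 and 0.947% were called lower. Of 27 NRF2 targets, which protect against oxidants, 25 differed below 0 and the median was -0.23 (18 and -0.15 with the 75th percentile scaling), and 2 fell: SRXN1, which repairs oxidised peroxiredoxins, by 0.63 ± 0.12 (limma, adjusted p = 0.017, lost without 3 h A at 0.0555) and GCLM, a subunit of the glutathione-forming ligase, by 0.48 ± 0.10 (adjusted p = 0.0318, lost without 3 h A, 3 h B, 22 h B or 22 h C at 0.0952, 0.106, 0.0944 and 0.0971). All 10 measured members of the metallothionein list, metal-binding proteins and the zinc exporter SLC30A1, differed below 0 at a median of -0.39, and the exporter alone was called. The median was -0.26 without 22 h C, and with the SM30 set controls as reference it turned to 0.11, with 4 of 10 below 0. SLC30A1 had 11.08, 11.06 and 10.99 at 3 h and 10.53, 10.62 and 10.48 at 22 h and fell by 0.50 ± 0.11 (1.42-fold, adjusted p = 0.0384). The values were tight, yet the call was lost without each array except 3 h C, at adjusted p from 0.061 to 0.102.

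CDKN1A, the p21 inhibitor of cyclin-dependent kinases and a p53 target, had 12.64, 12.35 and 12.53 at 3 h and 11.88, 12.01 and 11.96 at 22 h. It fell by 0.56 ± 0.11 (1.47-fold, limma, adjusted p = 0.0226) as the single call among 23 p53 targets and among 16 inhibitors and cyclins, and lost the call without 3 h A (0.0776), 22 h A (0.0508), 22 h B (0.0541) or 22 h C (0.0526). With the SM30 set controls as reference it differed by 0.34. FOXO1, a factor kept out of the nucleus by insulin signalling, fell 2.83-fold (-1.5 ± 0.26 on the log2 scale, adjusted p = 0.0132) as the single call among 16 genes of its list. S100P, a calcium-binding protein of secretory epithelia, had 12.88, 13.10 and 12.86 at 3 h and 11.68, 11.64 and 11.77 at 22 h, and fell by 1.25 ± 0.12 (2.38-fold, adjusted p = 0.000248). With LTB and MSC it was among the genes most often called, in 22 of 24 other settings. Of the other lists with a call, GABARAPL1, an autophagosome protein, fell by 1.05 ± 0.22 (adjusted p = 0.0307, lost without 3 h A, 22 h A or 22 h B at 0.0951, 0.0622 and 0.104), and ZYX, the focal adhesion protein zyxin, by 0.54 ± 0.11 (adjusted p = 0.0313, lost without 3 h A, 3 h B, 22 h A or 22 h B at 0.101, 0.0657, 0.058 and 0.12; 0.53 with the SM30 set controls as reference). MX2, an interferon-induced GTPase, was called lower (adjusted p = 0.0146) as the single call of 35 interferon-stimulated genes, but was well above background on no array. The 17 glucocorticoid receptor targets held BIRC3 and PER1 as their calls and had a median of -0.03. Of all genes 0.947% were called lower and 0.521% higher.

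No member was called by limma in the lists of G1/S and DNA replication (41 tested, median 0.01), mitosis (39, median 0.16, with 34 differences above 0), replication-dependent histones (17, 0.03), ribosome biogenesis (32, 0.10) or oxidative phosphorylation (30, -0.02). The mitosis median was 0.07 with 16 differences below 0 without 3 h C, 0.09 without 22 h A and -0.04 with the SM30 set controls as reference. The same was true of cholesterol synthesis (25, 0.24), fatty acid synthesis (14, 0.16), glycolysis and hypoxia (32, 0), the amino acid response through ATF4 (26, 0.08), chaperones of the endoplasmic reticulum (18, 0.07), heat shock (22, 0.15), YAP targets (22, -0.04) and TGF-beta targets (25, -0.13). The heat shock median was 0.02 without 22 h A, and without 22 h C that of the ATF4 list was -0.07, that of the chaperones 0.01 and that of the TGF-beta targets -0.06. Of all genes 7.19% were higher and 7.74% lower at an unadjusted p under 0.05, and 51.4% differed above 0.

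**Figure D4:**
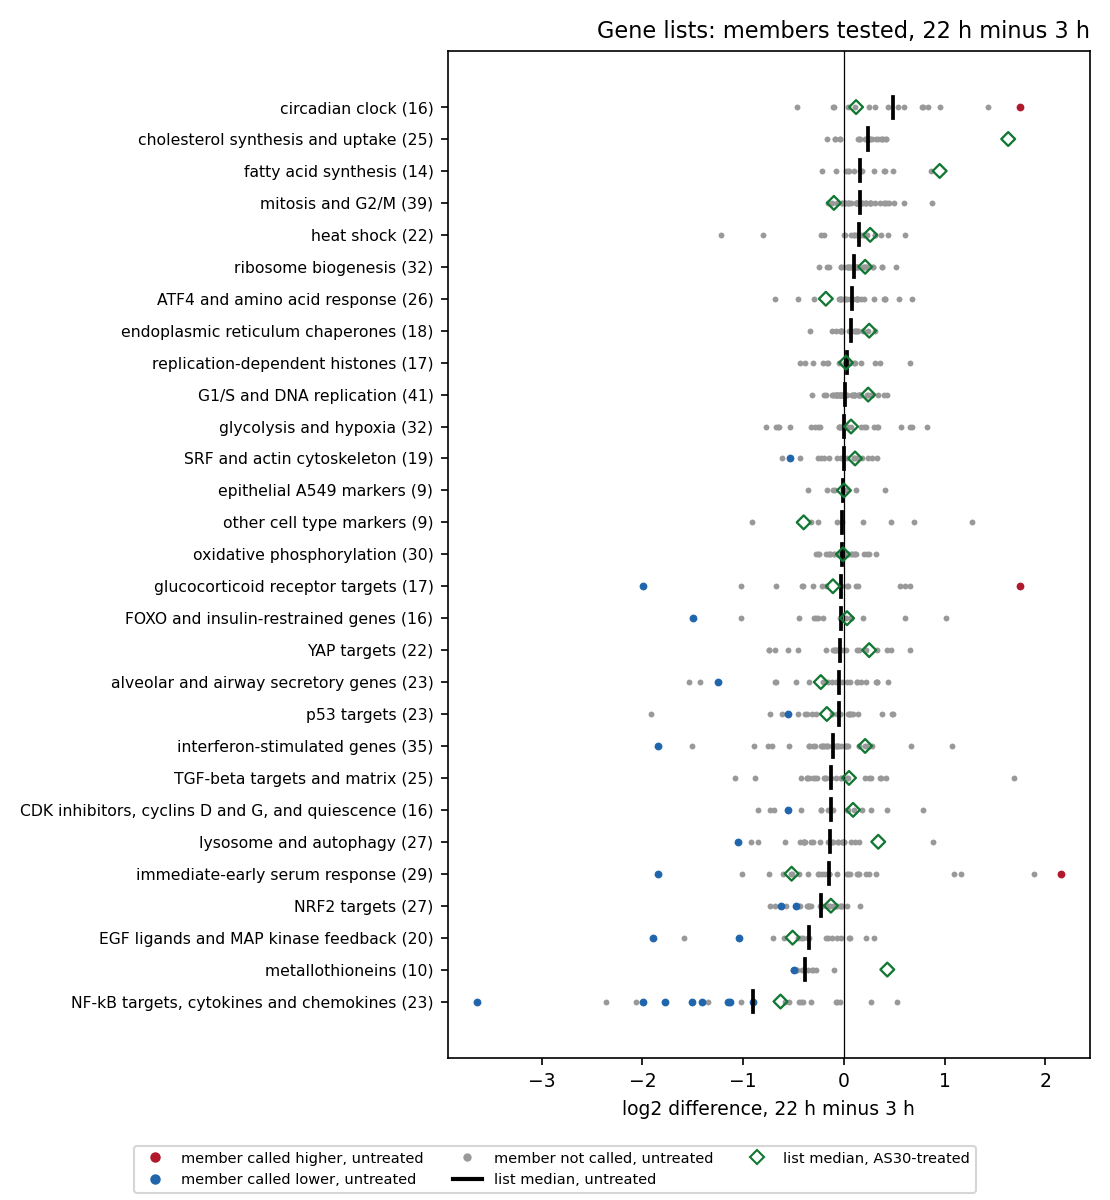
Log2 differences, 22 h minus 3 h, of the tested members of the 29 gene lists in untreated cells (horizontal axis), with 1 row for each list and the number of members tested in brackets. Points are members, red where called higher and blue where called lower, bars are the list medians and green diamonds the medians in AS30-treated cells. Rows are ordered by the median, from -0.90 for the NF-kB list to 0.49 for the circadian clock list.

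The change over the same times in AS30-treated cells gave a second reading, on other arrays. There time went with the slide, as the 3 arrays of each time were on 1 slide, so slide and time cannot be told apart. In those cells 3496 of 28662 probes (12.2%) were called. Of the 366 probes called in untreated cells 292 had the same direction, 118 of 142 higher and 174 of 224 lower, and 169 were also called that way. Across all 28176 probes the correlation of the changes was r = 0.21, and probes are not independent replicates. The called genes had median changes of 0.56 where they rose and -0.59 where they fell in untreated cells.

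The NF-kB list had a median of -0.63 with 11 members called lower in AS30-treated cells, against 6.01% of all genes. LTB fell there by 3.28 (adjusted p = 1.15e-05) and BIRC3 by 1.03 (adjusted p = 0.0103), and PER1 rose by 1.56 (adjusted p = 0.00181). EGR1 differed by 1.36 and was not called (adjusted p = 0.0664). KCNH2, in contrast, differed by 0.09 in treated cells (adjusted p = 0.912), but the difference of its changes was not called (adjusted p = 0.0626), and the same held for RGS14 (0.15 in treated cells, adjusted p of the difference 0.0569). Of the 12 largest rises 8, and of the 12 largest falls 7, were called in treated cells. GREM1 (-0.09, limma, adjusted p = 0.892), HDAC5 (-0.67, 0.15), CCL2 (-0.62, 0.352) and, from the NF-kB list, NFKBIE (-0.14, 0.705) were also not called there. The cholesterol list had a median of 1.63 with 22 members called higher in treated cells, where the background was 7.78%, and 0 called in untreated cells.

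The difference between the changes was tested directly, and 69 of 28176 probes (0.245%) were called, 28 of which were among the 366. That test holds the same untreated arrays on which the 366 were called, so the overlap is no separate result. SLC30A1 was one of the genes with opposite changes, -0.50 in untreated and 0.51 in treated cells (adjusted p of the difference = 0.0278, limma). Without replicate C at 3 h the count was 1532, and without 22 h A it was 16.

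**Figure D5:**
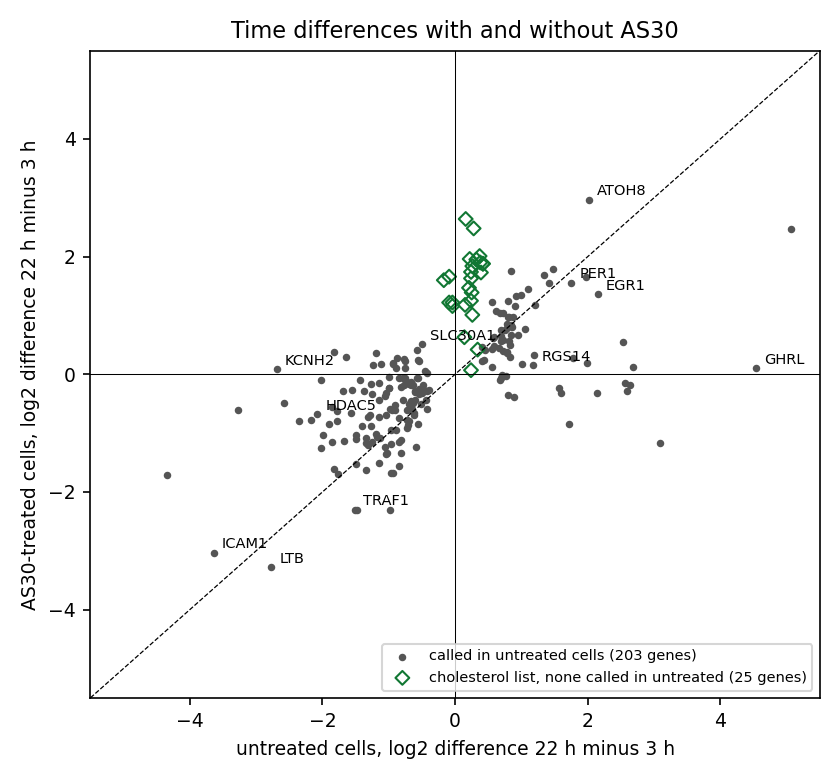
Change from 3 h to 22 h in AS30-treated cells (log2, vertical axis) against that in untreated cells (log2, horizontal axis). Dark points are the 203 genes called in untreated cells, green diamonds the 25 genes of the cholesterol list, and the dashed line marks equal changes. Of the called genes 58 of 72 higher and 112 of 131 lower ones had the same direction in treated cells, and the diamonds lie above the line for most of the list.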

How the data were processed

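RNA of A549 cells was hybridised to 1-colour Agilent arrays. The authors deposited, for each array, the scanner output of Agilent Feature Extraction 10.5.1.1 with linear intensity values: a processed signal after background correction, the raw mean signal and the local background, with flags (probe positions on hg18). Their value table, also deposited, holds quantile-normalised intensity for 41000 probes, and its columns not used number 0. From the scanner files, control spots were removed and log2 processed signals of the 18 arrays were quantile-normalised together. Signals not scored positive and outlier spots became missing, spots of 1 probe were averaged, and 28665 probes with at most 33% missing values stayed, of which 28179 had values in both groups. Symbols came from RefSeq accessions (23958 probes), from a symbol match (3787) or from the file (13255).

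Groups came from the labels. The main test was limma 3.58.1 (R 4.3.3, statmod 1.5.0, with the data.table package at 1.17.8) on the 18 arrays as 6 groups with 12 residual degrees of freedom, contrasting the untreated groups, with Benjamini-Hochberg adjustment over all probes. A gene was read by its brightest probe. For a limit ("at least"), the bright group's mean was compared with the dim arrays, each taken at the larger of 2 values, its own signal and the least signal scored well above background. No spot was saturated, and the number of arrays limits the precision. The named genes are the 12 largest rises and falls among called probes measured on all 6 arrays with groups apart, and up to 6 called and the most changed members of each list. The members, lists and tests were chosen with earlier results of these data known. The code was tested on simulated data, and 19 kinds of alternative were tried. Promoter windows were searched for 10 motifs on both strands.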

Additional observations from a re-analysis of the deposited data

Results flagged for a closer look

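Genes whose change from 3 h to 22 h differed between untreated and AS30-treated cells in a direct test were IFIT1 and SLC30A1 among those named by the rule. IFIT1, an interferon-induced RNA-binding protein, had log2 signals of 6.73, 6.94 and 6.72 at 3 h and 8.25, 7.61 and 7.75 at 22 h in untreated cells, a difference of 1.07 ± 0.27 that was not called (limma, adjusted p = 0.067), against a rise of 3.53 in AS30-treated cells (adjusted p = 1.15e-05). The difference of the changes was -2.46 ± 0.38 (adjusted p = 0.0281). For SLC30A1 the difference was -1.01 ± 0.15 (adjusted p = 0.0278), with a change of -0.50 in untreated and 0.51 in treated cells. In treated cells slide and time cannot be told apart. Neither gene was called for this difference in the fit of the 12 arrays of the AS30 set, in which 0 probes were called and 3364 had an unadjusted p under 0.05.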

How the results depend on the processing

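Of the 366 probes called (142 higher, 224 lower), the count fell most in smaller fits and rose most with another 3 h reference. The fit of the 6 untreated arrays called 0 (0 higher, 0 lower) with limma, with 2365 probes at an unadjusted p under 0.05. The 12 arrays of the AS30 set gave 31 (12 and 19), keeping all spots 234 (70 higher), the slide as a fixed block 189 (51 and 138), the slide as a random block 220 higher, and the shared slide alone 223 (64 higher). Scaling to the 75th percentile gave 94 higher and 245 lower. Array weights, which gave 3 h C the lowest weight of 0.164, called 3493 (1686 and 1807), and the SM30 set controls as the 3 h reference 9965 (4392 and 5573). Leaving out 1 array gave 195 to 1557 probes (72 to 663 higher, 123 to 894 lower), the most without 3 h C. The difference from AS30-treated cells went from 69 probes to 0 with 12 arrays, 35 with the 75th percentile, 12 with all spots, 32 for probes positive on all 6 arrays, 39 for probes well above background and 16 to 1532 with 1 array left out. With the SM30 set controls as reference, BST2 (2.38), CDKN1A (0.34), E2F8 (-0.85), EGR1 (-0.01), KCNH2 (0.37), NFKB2 (0.35), SPIN3 (-0.11), UGDH (-0.36) and ZYX (0.53) reversed. The cause of these shifts was not tested. Of 40 called genes named by the rule 34 kept their direction in the settings that gave them a value, 18 for MX2, 21 for ICAM1, 23 for UCN3 and 24 for the rest of them. With the replicate letter as a block, 6 probes were called on 12 arrays (2 and 4) and 0 on the 6 arrays (0 and 0; 2894 at an unadjusted p under 0.05). Whether arrays of the same letter share a culture is not known. Deviations of same-letter arrays correlated at 0.31, -0.09 and 0.30 (A, B and C), and those of other pairs at -0.44 to 0.39. Not every array correlated best with its own letter, and so few arrays cannot decide the pairing.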

Other observations

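GHRL, the precursor of the hormone ghrelin, was called higher by 4.54 ± 0.32 (limma, adjusted p = 0.000248), but it was measured on 3 of the 6 arrays, with log2 signals of 3.26 and 3.73 in 3 h A and B and 8.04 in 22 h A, so a single array carries the late value. It was scored well above background on 2 arrays at 3 h and 1 at 22 h. That score also covers spots left out as outliers, so the low early values are uncertain. In AS30-treated cells GHRL differed by 0.10 (adjusted p = 0.815), and the difference of its changes was called (limma, adjusted p = 0.00182). EFNA1, a membrane ligand of Eph receptors, had 13.44, 13.64 and 13.25 at 3 h and 11.87, 12.01 and 11.95 at 22 h and fell 2.83-fold (-1.5 ± 0.17 on the log2 scale, adjusted p = 0.000691), and differed by -1.53 in AS30-treated cells (adjusted p = 0.000168). Both were chosen after their values had been seen.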
